A study of Mus musculus with 28 samples.

Results

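The comparison described here asked what changed in the RNA of a mouse embryonic stem (ES) cell line when a Ctbp2 transgene was switched on. It rests on 4 of the 28 arrays of the series. These were the scanner files of the line labelled tetCtbp2, clone 23, which is 1 clone made in the parent ES line MC1R(20). In this system doxycycline (Dox) keeps the transgene off and its removal switches it on. Both groups carried the same transgene and stayed in the same medium with LIF, the cytokine that holds ES cells undifferentiated, and with puromycin at 1.5 µg/ml. By their labels, the cells of both groups were plated with Dox at 0.2 µg/ml. The group with Dox (0.2 µg/ml, transgene off) and the group without Dox (transgene on) each had 2 arrays, and cells were taken 48 h after the final wash, at passage 25. The cells are male and their strain is labelled 126S6/SvEvTac. Each of the 7 lines of the series was grown as 6 wells, 3 per condition, and 2 wells per condition were arrayed. The replicates are therefore wells of 1 clone. The p-values rest on the spread between replicate wells, pooled over all 7 lines, and do not measure the spread between clones. The other 6 lines carry Tcl1, Etv5, Tbx3, Jarid2, Jmjd2c or Mettl5 transgenes in the same design. The 2 Tbx3 arrays without Dox were on different slides, so that a difference between slides enters the pooled spread.

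Ctbp2 (C-terminal binding protein 2) is a transcriptional corepressor. It does not itself bind a DNA sequence but is brought to genes by transcription factors that carry a short peptide motif, and it recruits histone deacetylases, histone methyltransferases and a histone demethylase. Its assembly depends on binding of the cofactor NADH, which ties it to the metabolic state of the cell. In ES cells it is known for a part in silencing the genes of the undifferentiated state when cells leave that state, and mouse embryos without it die during gestation.

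Every array held the sample RNA labelled with Cy3 and a common reference labelled with Cy5, mixed from 2 parts of a pool of RNA from 11 lines and 1 part from ES cells. A level is log2 of the sample signal over the reference signal of the same probe, and a change is the level without Dox minus the level with Dox. A probe was tested if its Cy3 signal was well above background on both arrays of either culture, which kept 26661 of the 42006 probes of 60 bases. On the 28 arrays the median Cy3 signal was 1.77 to 2.80 times the median local background, and 25428 to 28841 probes were well above background. The SD of the difference between the 2 replicates over the tested probes was 0.25 with Dox and 0.21 without Dox in the Ctbp2 line, 0.37 and 0.35 in the Tbx3 line, and 0.18 to 0.28 in the other lines. All 4 Ctbp2 arrays were on 1 slide, the cultures with Dox at positions 1 and 2 and those without Dox at positions 3 and 4, so that array position and culture cannot be told apart within the line. The files pair 0 probes with a gene, so that the unit here is the probe, the level of the transgene's own transcript is not analysed here, no cell type marker could be checked, and the assignment of arrays to cultures rests on the labels.

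The sequences of the probes with the 2 largest fitted rises and the 2 largest fitted falls are given as the array holds them, 5′ to 3′, because their identity can be read from nothing else in the files. No letters are in capitals, since no part of them was singled out.
Z00072898-1: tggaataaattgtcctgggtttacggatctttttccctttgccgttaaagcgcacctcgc
Z00074822-1: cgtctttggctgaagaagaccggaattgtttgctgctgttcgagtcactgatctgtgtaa
Z00054470-1: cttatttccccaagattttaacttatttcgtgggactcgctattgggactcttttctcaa
Z00007724-1: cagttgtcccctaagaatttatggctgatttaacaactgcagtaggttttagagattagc
The 2 rising probes hold 28 G or C bases each and the 2 falling probes 23 each.

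Removal of Dox changed 1588 probes in the Ctbp2 line, which is 5.96% of those tested (limma over all 28 arrays, Benjamini-Hochberg adjusted p under 0.05, two-sided). Of these, 1006 rose (3.77%) and 582 fell (2.18%), so that 63.4% of the changed probes were higher with the transgene on. Most changes were small. The median rise was 0.46 on the log2 scale, a 1.37-fold change, and the median fall was -0.34, a 1.27-fold change. The median change over all tested probes was -0.015. A change of at least 1.5-fold was reached by 329 rising probes (1.23% of those tested) and 101 falling probes (0.379%), and one of at least 2-fold by 86 (0.323%) and 25 (0.0938%). At 4-fold and beyond there were 12 rises and 3 falls. In all 1588 probes the 2 cultures without Dox did not overlap the 2 with Dox, which was also the case for 54.9% of all tested probes and so says little by itself.

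The count differed with the arrays in the fit and with the centring. Without the 4 Tbx3 arrays, the most variable of the series, 3138 probes passed, among them all 1588, and with the 4 Ctbp2 arrays alone 208 passed. Leaving out 1 Ctbp2 array gave 1004 probes without replicate 1 with Dox, 866 without replicate 2 with Dox, 856 without replicate 1 without Dox and 797 without replicate 2 without Dox. With log ratios centred on the median of all probes of each array 394 passed. Rises outnumbered falls in each of these fits. With normexp background correction of the mean spot signals and loess within arrays, changed together, 1618 probes passed but 150 of them by 1.5-fold or more, 136 up and 14 down.

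**Figure D1:**
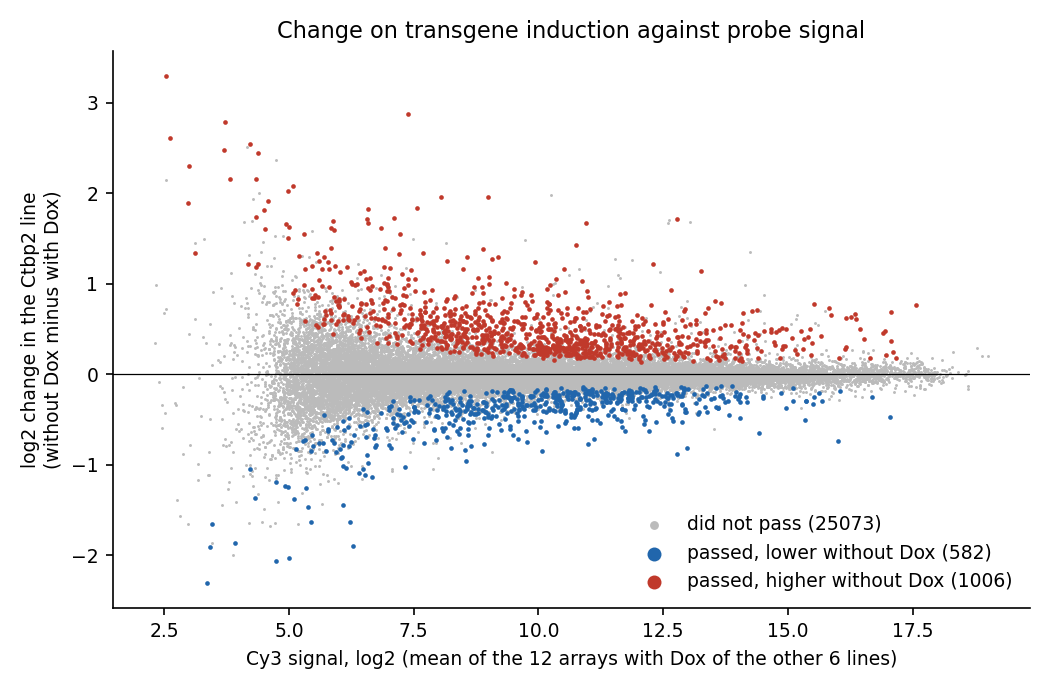
Each point is 1 of the 26661 tested probes, with its Cy3 signal (log2, mean of the 12 arrays with Dox of the other 6 lines) on the x axis and its log2 change in the Ctbp2 line on the y axis; red and blue mark the 1006 probes that rose and the 582 that fell. The largest changes lie at the dim end, and among probes with a signal of 12 or more on the log2 scale 3 rose and 0 fell by 2-fold.

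Changes were found over the whole range of signal, but their size fell with brightness, as the plot of change against probe signal shows. Of the probes with a log2 Cy3 signal under 6, 3.12% changed, and the median size of a called change was 1.17. Between 8 and 10 it was 8.13% of probes with a median size of 0.42, and at 12 and over 4.59% with a median size of 0.31. The standard error of a change had a median of 0.29 in the dimmest of these classes and 0.066 in the brightest. Of the 1006 rising probes, 977 were well above background on all 4 Ctbp2 arrays, as were 559 of the 582 falling ones. Among the 86 rises of at least 2-fold it was 61, and among the 25 falls 11.

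The 61 rises of at least 2-fold that were measured on all 4 arrays had a median change of 1.24. The lower of the 2 cultures without Dox stood above the higher of the 2 with Dox by a median of 1.09 on the log2 scale, and by more than 0.5 in 60 of the 61 probes. The 11 falls of this kind had a median change of -1.11, with a median gap between the groups of 0.98 and a lowest gap of 0.58. Both sets were chosen on these same arrays for a change of at least 2-fold. That by itself sets the groups apart, so the gaps are a description only.

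Some probes were well above background in 1 culture alone. They entered the test through that culture, so that their numbers are a description only. Detection also differed between arrays: replicate 2 without Dox had 26233 probes well above background, and the other Ctbp2 arrays had 27033 to 27293. Of the tested probes, 101 were well above background on both arrays without Dox and on neither with Dox, and 22 of them passed as rises. In the other direction 234 probes were well above background on both arrays with Dox and on neither without, and 15 of them passed as falls. For such probes only a lower bound of the fold can be given. It is computed on the Cy3 signal, from the mean of the detected culture against, on each array of the other culture, the higher of the probe's own signal and the lowest signal among probes well above background.

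Z00072898-1 had the largest fitted rise, which is no measured size, since it was undetected with Dox. Its level was -2.77 and -2.80 with Dox, where neither array was well above background, and 0.45 and 0.56 without Dox, where it was well above background on both. The group means were -2.79 ± 0.022 and 0.51 ± 0.075 (SD, n = 2), and the change of 3.30 (SE 0.24) passed (limma adjusted p 2.85e-07). Both cultures with Dox lay far below both without Dox. On the Cy3 signal the rise was at least 1.55-fold, and with normexp background correction and loess within arrays together it was 0.47 on the log2 scale. This probe also changed elsewhere: its fitted change was 3.36 in the Tcl1 line, 3.31 in the Tbx3 line, 3.04 in the Mettl5 line and 2.31 in the Etv5 line, all of which passed, and 1.51 in the Jarid2 line and 0.93 in the Jmjd2c line, which did not (adjusted p 0.062 and 0.17 by limma). It was well above background on 0 of the 12 other arrays with Dox and on 7 of the 12 without, and on no array of the Jarid2 and Jmjd2c lines, so that no rise can be read in those lines. The difference from the mean change of the other 6 lines did not pass (adjusted p 0.070, limma).

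Z00074822-1 had the second largest fitted rise and was well above background on all 4 arrays, but its cultures with Dox differed widely. Its level was 1.95 and -1.29 with Dox and 3.14 and 3.26 without Dox, so that the groups did not overlap while 1 culture with Dox was far below the other. The change was 2.87 (SE 0.75, limma adjusted p 0.031). It rested on replicate 2 with Dox: without that array the change was 1.25 and did not pass (adjusted p 0.44, limma), and without replicate 1 with Dox it was 4.49 (adjusted p 0.00044). It also did not pass without replicate 1 or without replicate 2 of the cultures without Dox (adjusted p 0.13 and 0.16, limma) or in the authors' value table, with a change of 1.25 and an adjusted p of 0.12. The level without Dox, 3.20 ± 0.080 (SD, n = 2), lay above the group means of all other lines, which reached 1.48 with Dox and 1.87 without. The change differed from the mean of the other lines by 2.44, which did not pass (adjusted p 0.12, limma).

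Z00054470-1 had the largest fitted fall, from 0.22 and 0.08 with Dox to -2.26 and -2.04 without Dox, where both arrays missed the background threshold. The Cy3 signals with Dox were 81.46 and 28.23. From their mean the level was at least 1.74-fold lower without Dox, a bound that rests mainly on replicate 1. The change was -2.30 (SE 0.56, limma adjusted p 0.019). It did not pass when any 1 of the 4 Ctbp2 arrays was left out (adjusted p 0.091 to 0.13, limma), and with normexp and loess together it was -0.21 (adjusted p 0.13). With Dox the mean of 0.15 was above the highest of the other lines, 0.13 in the Tcl1 line. Outside the Ctbp2 line the probe was well above background in the Tcl1 line alone, so that the levels of the other 5 lines have no order and a fall could not be measured there. The fitted difference from the mean change of the other lines passed (adjusted p 0.0195, limma), with its size resting on values at background.

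Z00007724-1 fell from -1.40 and -2.69 with Dox to -3.93 and -4.30 without Dox, where neither array was well above background. Both cultures with Dox were above both without it, but they differed from each other by more than those without. The change was -2.07 (SE 0.29, limma adjusted p 0.000274), and -0.32 with normexp and loess together. On the Cy3 signal, 101.4 and 31.28 with Dox, it was at least 2.04-fold, a bound that rests mainly on replicate 1 with Dox. With Dox the mean of -2.05 was above the highest of the other lines, -2.70. In the other lines it was well above background on 6 of 12 arrays with Dox and 4 of 12 without. The fitted difference from the mean change of the other lines passed (adjusted p 0.000831, limma), again with its size resting in part on values at background.

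**Figure D2:**
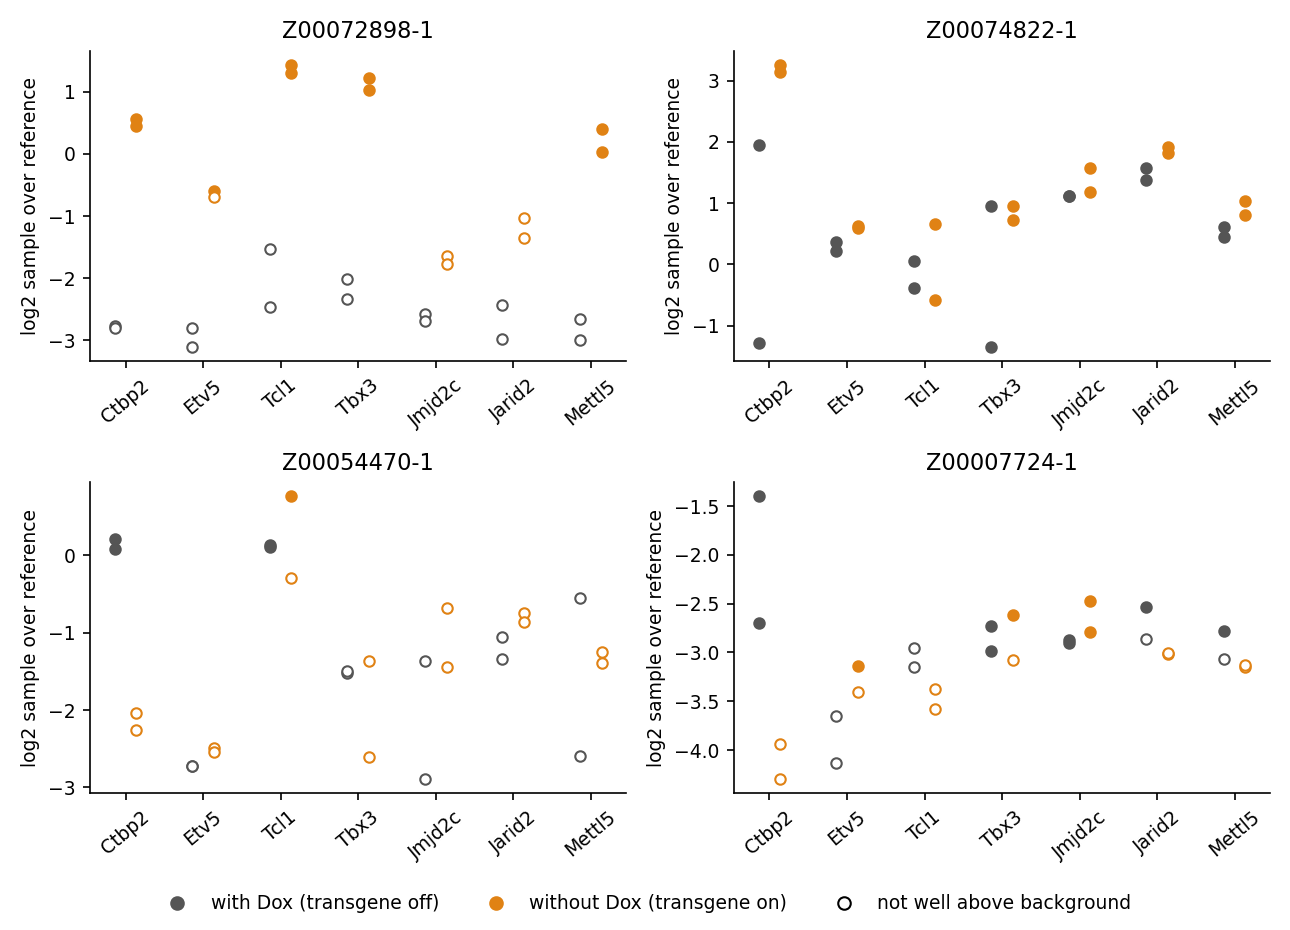
Level (log2 sample over reference) of the probes with the 2 largest fitted rises and the 2 largest fitted falls on all 28 arrays, by line, with Dox in grey and without Dox in orange. Open circles are arrays on which the probe was not well above background. Z00072898-1 is undetected on every array with Dox and detected on both arrays without Dox in the Ctbp2, Tcl1, Tbx3 and Mettl5 lines, and for Z00074822-1, detected on all 28 arrays, the 2 Ctbp2 cultures without Dox are the highest.

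A test of the difference asked whether the Ctbp2 response was unlike the mean response of the other 6 lines. It passed for 840 probes with a higher change in the Ctbp2 line (3.15% of those tested) and 403 with a lower one (1.51%). Of the 1006 rising probes 758 (75.3%) passed this test too, and of the 582 falling probes 353 (60.7%). Among the rises of at least 2-fold that were measured on all 4 arrays it was 56 of 61, and among such falls 8 of 11. Both lists were chosen with the Ctbp2 arrays that enter this test, so that these shares describe the lists and are no independent support. Passing it does not mean that no other line changed: of the same 61 rises 43 passed as rises in no other line, and of the same 11 falls 8 passed as falls in no other line.

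In the other lines the same probes had small median changes. The median change of the 1006 rising probes was 0.064 in the Etv5 line, 0.056 in Mettl5, 0.038 in Jarid2, 0.019 in Jmjd2c, -0.014 in Tbx3 and -0.055 in Tcl1. That of the 582 falling probes ran from -0.047 in Etv5 to 0.021 in Jmjd2c. The medians over all tested probes lay between -0.011 and 0.0011 in these lines. In the other 6 lines together, 35 of the rising probes (3.48%) were up in all, against 1.14% of all tested probes, and 14 of the falling probes (2.41%) were down in all, against 1.89%.

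**Figure D3:**
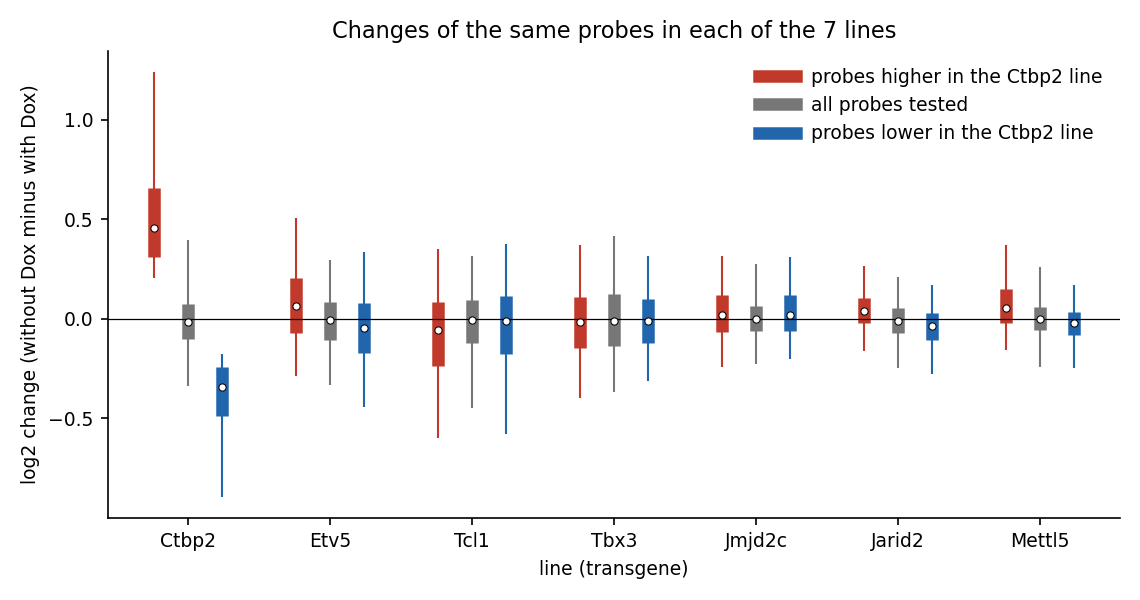
Log2 change in each line of the probes that rose in the Ctbp2 line (red), of all tested probes (grey) and of the probes that fell (blue); white points are medians, thick bars the middle 50% and thin lines the 5th to 95th percentiles. Outside the Ctbp2 line the 3 medians differ by little, and the red median is above the blue one in every line except Tcl1, Tbx3 and Jmjd2c.

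Etv5, an ETS family transcription factor, gave the line with the largest number of shared rises. Of the Ctbp2 rises, 148 (14.7%) also rose in the Etv5 line, where 2.07% of the tested probes rose, and these were 26.8% of the Etv5 rises. In the opposite direction, 41 Ctbp2 rises (4.08%) fell in the Etv5 line, against 2.82% of tested probes. Of the Ctbp2 falls, 84 (14.4%, and 11.2% of the Etv5 falls) fell in the Etv5 line too and 36 (6.19%) rose there.

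With Tcl1, which activates the kinase Akt, more Ctbp2 rises fell than rose, and both shares were above those of all tested probes. Of the Ctbp2 rises, 199 (19.8%, and 15.5% of the Tcl1 falls) fell in the Tcl1 line, where 4.82% of tested probes fell, and 69 (6.86%) rose, where 3.28% rose. The Ctbp2 falls took like shares of both Tcl1 lists: 94 (16.2%, and 7.31% of the Tcl1 falls) fell and 64 (11.0%, and 7.32% of the Tcl1 rises) rose in the Tcl1 line.

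With Tbx3, a T-box transcription factor, 108 of the Ctbp2 rises fell (10.7%, and 9.08% of the Tbx3 falls, against 4.46% of tested probes) and 76 rose (7.55%, and 8.20% of the Tbx3 rises, against 3.48%). Of the Ctbp2 falls 40 fell (6.87%) and 36 rose (6.19%) in that line. With Jmjd2c, a histone demethylase, few probes changed at all, 57 up (0.214%) and 20 down (0.075%). Of those, 10 of the 20 falls were Ctbp2 rises and 15 of the 57 rises were Ctbp2 falls, while 10 of the rises were Ctbp2 rises and 1 of the falls was a Ctbp2 fall. With Mettl5, a methyltransferase of ribosomal RNA, 8 probes rose (0.03%), and 6 of them were Ctbp2 rises. Jarid2, a component of Polycomb complexes, changed 2 probes up and 2 down, none of them in the Ctbp2 lists. Of all tested probes, 3.77% were Ctbp2 rises and 2.18% were Ctbp2 falls. All of these lines except Tbx3 had their cultures in the same order of array positions as the Ctbp2 line. In a change shared with them, array position and Dox removal cannot be told apart from the transgenes. No test of these overlaps was made. The calls of all lines share 1 estimate of the spread per probe, so that a probe with a small spread passes more readily in each of them.

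Few probes passed in many lines, and few could, since few probes changed at all in the Jmjd2c, Mettl5 and Jarid2 lines. Of the rises, 732 passed as rises in the Ctbp2 line alone, 247 in 1 more line, 23 in 2 more, and 4 in 4 or more of the 7 lines. Of the falls, 388 passed as falls in the Ctbp2 line alone, 170 in 1 more line, 23 in 2 more and 1 in 3 more. Counting either direction, 543 of the rises and 312 of the falls passed in no other line. The most widely shared rise passed in 6 of the 7 lines. Its level in the Ctbp2 line was 0.51 and 0.21 with Dox and 1.47 and 1.87 without, a change of 1.31, and its changes in the other lines ran from 0.42 in Jarid2 to 1.80 in Tbx3. For this probe the Ctbp2 change differed from the mean of the others by 0.15 (SE 0.17, limma adjusted p 0.84).

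Levels before induction were described from the 12 arrays with Dox of the other 6 lines. These arrays do not enter the size of the Ctbp2 change, but they enter the pooled spread on which the calls rest. The probes that changed were more often unlike the reference than probes in general. The median level was 0.07 for rises, 0.04 for falls and 0.26 for all tested probes, with lower quartiles of -1.23, -1.11 and -0.43. Among the 4081 probes with a level under -1, which are lower in ES cells than in the reference pool, 7.01% rose and 3.85% fell. Among the 5088 with a level over 1, which are higher in ES cells, 3.97% rose and 3.52% fell. Between these bounds, 2.96% of 17492 probes rose and 1.41% fell. Rises made up 64.6% of the changes at levels under -1, 67.8% between the bounds and 53% at levels over 1.

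The changed probes also differed more between uninduced clones. The SD over the group means of the other 6 lines with Dox had a median of 0.32 for rises, 0.29 for falls and 0.22 for all tested probes. In the most variable 10% of probes, those with an SD over 0.49, 8.96% rose and 4.39% fell. In the least variable 10%, 1.31% rose and 0.90% fell. The median standard error was also larger in the most variable 10% than in the least variable, 0.21 against 0.062. Whether this spread plays a part in the result was not tested.

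**Figure D4:**
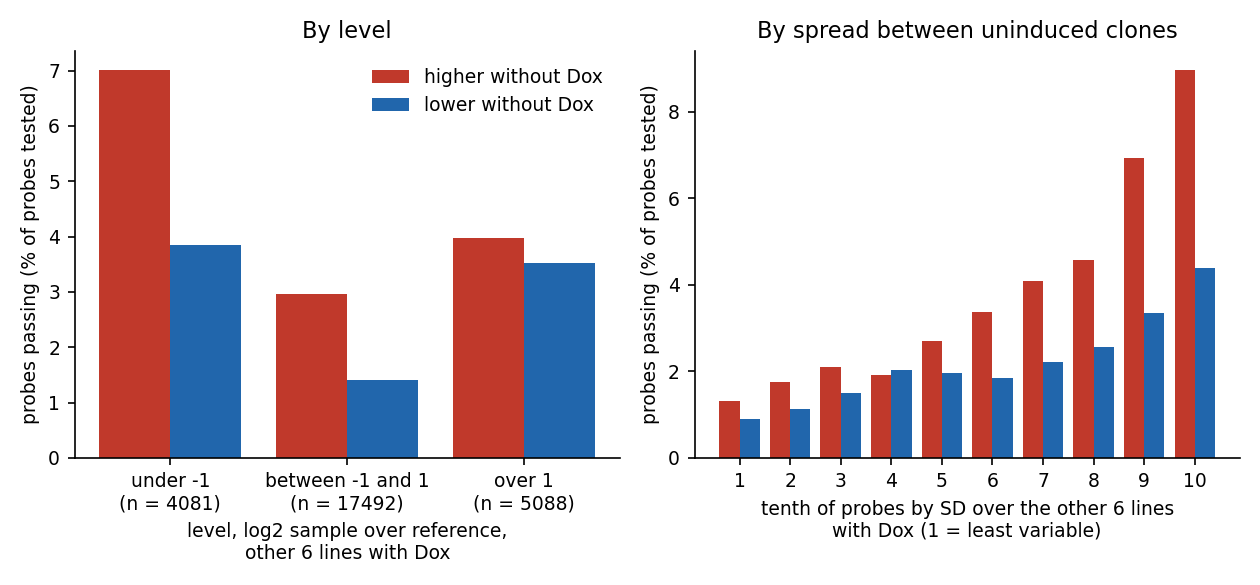
Percent of tested probes that rose (red) or fell (blue) in the Ctbp2 line, by level in the other 6 lines with Dox (left; n is the number of probes) and by SD over those lines, in 10 classes of equal size (right). Both directions are most frequent at levels under -1 or over 1, and the percent that rose goes from 1.31% in the least to 8.96% in the most variable class.

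The position of each probe was also read against the range of the group means of the other 6 lines with Dox. The lists were chosen on these arrays for being higher or lower without Dox, which by itself raises the number that end beyond a fixed range, so the counts are a description only. With Dox, 739 of the 1006 rising probes (73.5%) lay within that range, 155 (15.4%) below it and 112 (11.1%) above it, against 82.1%, 9.53% and 8.33% of all tested probes. Without Dox, 485 lay within it and 520 (51.7%) above it, where 9.28% of all tested probes lay above it. From within to above went 381 rising probes (37.9%, against 5.25% of all), and from below to within 127 (12.6%, against 4.28%). Of the 582 falling probes, 460 (79.0%) lay within the range with Dox and 116 (19.9%) above it. Without Dox 445 lay within it and 137 (23.5%) below it, against 11.6% of all tested probes. From within to below went 116 of them (19.9%, against 6.38% of all), and from above to within 101 (17.4%, against 4.34%).

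Probes that share sequence can measure the same stretch of RNA. Where they do, they give a second reading of a change on the same arrays, not a second sample. On the array, 983 pairs of probes shared at least 20 bases on the same strand with every base equal, and both probes of 659 pairs were tested. Both rose in 32 pairs and both fell in 6, in 18 pairs 1 rose and the other did not pass, in 13 pairs 1 fell and the other did not pass, and in 0 pairs did 1 rise and the other fall. In 67 of the 69 pairs with a change that passed, both changes had the same sign. Where both passed, the changes differed by a median of 0.031 and by at most 0.19 on the log2 scale. The median difference over all 659 pairs was 0.035. Over all 659 pairs the changes correlated at r = 0.65 across pairs, which share arrays and sequence, and this is a description without a test.

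Among the pairs in which both probes passed, the one with the largest rise and the one with the largest fall, chosen after their values were seen, are shown because they let each change be read from 2 probes. Capitals mark the bases that the 2 probes of a pair share.
First probe of the rising pair: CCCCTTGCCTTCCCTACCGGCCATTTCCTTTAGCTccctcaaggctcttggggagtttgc
Second probe of the rising pair: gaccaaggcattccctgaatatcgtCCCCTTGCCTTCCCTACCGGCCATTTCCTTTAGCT
First probe of the falling pair: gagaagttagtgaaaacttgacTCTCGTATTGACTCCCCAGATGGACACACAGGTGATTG
Second probe of the falling pair: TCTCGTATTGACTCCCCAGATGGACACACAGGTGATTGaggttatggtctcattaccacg
The rising probes share 35 bases. The first had a level of 1.12 and 1.17 with Dox and 2.34 and 2.26 without, a change of 1.16 (SE 0.082, limma adjusted p 2e-07). The second went from 1.06 and 0.98 to 2.11 and 2.04, a change of 1.06 (SE 0.065, limma adjusted p 4.8e-08). Both were thus about 2-fold higher without Dox, with no overlap between the groups, and their differences from the mean of the other lines, 1.14 and 1.06, passed as well (adjusted p 6.7e-07 and 1.5e-07, limma). The falling probes share 38 bases and are high in ES cells against the reference. The first went from 3.66 and 3.49 with Dox to 3.14 and 3.19 without, and the second from 3.45 and 3.29 to 2.95 and 2.97. Each change was -0.41 (SE 0.085, limma adjusted p 0.0063), and for both probes the cultures with and without Dox did not overlap.

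Sequence overlap also showed where a large change did not recur. A probe with a change of 1.62 (SE 0.44, limma adjusted p 0.039) had levels of 1.77 and 3.25 with Dox and 4.32 and 3.94 without. It shares 50, 51 and 32 bases with 3 other probes, whose changes were -0.03, 0.01 and 0.09 and did not pass. Its replicate 1 with Dox was low, while those 3 probes had levels of 3.65, 3.44 and 3.32 on the same array. Another probe had close replicates, 2.38 and 2.44 with Dox and 4.02 and 3.98 without, a change of 1.59 (SE 0.33, limma adjusted p 0.0068). It shares 28 bases with a probe whose change was -0.28 (SE 0.54) and did not pass.

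**Figure D5:**
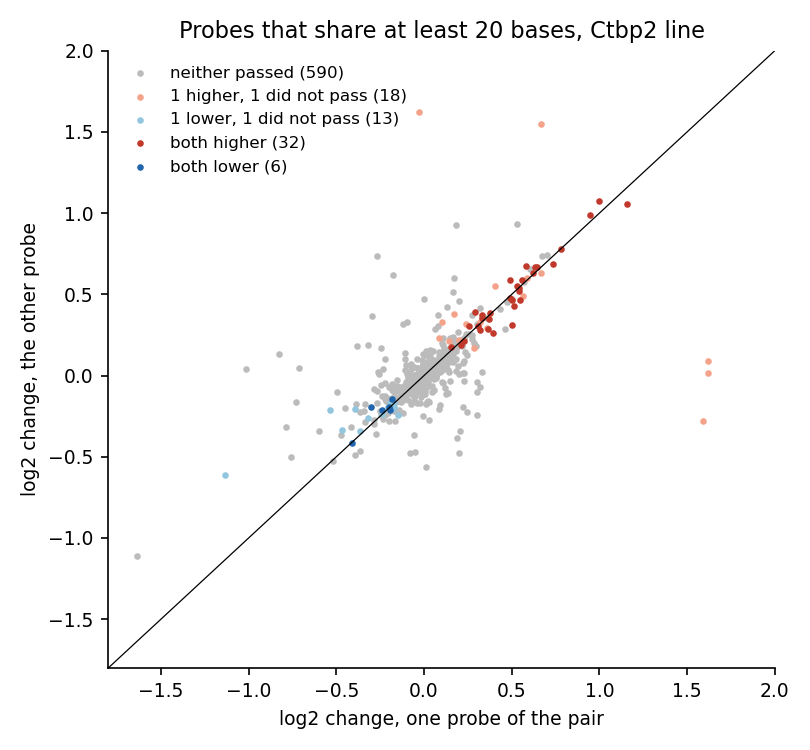
Log2 change in the Ctbp2 line of both probes of the 659 tested pairs that share at least 20 bases, with the line of equal change; colours give which of the 2 passed. The 38 pairs in which both passed lie along the line, and 4 pairs with 1 rise lie more than 1 off it. All but 1 of these 4 hold the same rising probe.

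Base composition of the probes differed little between the lists. G and C made up a mean of 44.8% of the bases in rising, 43.5% in falling and 45.0% in all tested probes. The hexamer AATAAA, the usual signal for 3′ end processing, was in 114 rising probes (11.3%), 52 falling probes (8.93%) and 7.74% of all tested probes, searched on the strand of the probe as written. On the opposite strand, read as TTTATT, it was in 2.78% of rising, 3.26% of falling and 3.08% of all tested probes, and 1 rising and 3 falling probes held both. A match is a description of these 60 bases and says nothing of the use of a signal. Of the tested probes 134 lay in the promoter window of a single gene in the RefSeq table for GRCm38.p6 (250 bases before to 50 after the start, at least 30 equal bases). Of these 1 passed, where 5.96% of all tested probes passed, and no test of this was made. A match to a window does not assign a transcript to the probe, and no gene is named from it.

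The Cy5 channel carried one reference mixture throughout and is described beside the log ratios. Fitted in the same way, its signal passed for 6 probes, 3 up and 3 down (0.0225% of those tested), with 507 probes at an unadjusted p under 0.05. Of the 1588 probes that changed in the log ratio 3 were among these 6, 2 rises and 1 fall. A change in the reference signal was therefore called for few of the changed probes.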

How the data were processed

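The members and lists were chosen with earlier results of these data known. Per the file headers, the deposited processed signals are intensity values on which Agilent Feature Extraction 9.5.1.1 had subtracted the background and balanced the dyes within the array; the deposited mean and background signals are intensity values before that. The deposited flags for detection and spot quality are other values of 0 or 1 per the file headers. The value table of the authors holds 25030 probes as log10 values; on each Ctbp2 array 99.9% to 100% of spots with a Cy3 signal over 500 lay within 0.01 of the Cy3 signal less the deviation of Cy5 from its mean over arrays. Its Ctbp2 column medians were 2.28, 2.27, 2.28 and 2.28, and how low values were bounded in it is not given in the sources used here.

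Spots with an outlier flag were left out, spots of a probe were averaged, and no spot was saturated. Group means were fitted to log2(Cy3/Cy5) over all 28 arrays (limma 3.58.1, lmFit and eBayes, R 4.3.3), with 14 residual degrees of freedom. The script was tested on simulated data. Probes named are the 2 largest rises and falls among passing probes with no overlap between the cultures and whose higher group had both arrays well above background. Gene lists and cell type markers were not run, since 0 probes pair with a gene. With 2 arrays per group, their number limits precision. Alternatives covered signal, centring, filter, arrays, blocks and single arrays left out.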

Additional observations from a re-analysis of the deposited data

Results flagged for a closer look

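The Ctbp2 response was set against the average response of the remaining lines, and 840 probes passed with a higher and 403 with a lower change in the Ctbp2 line (limma, adjusted p under 0.05). Of the 4 probes named, 2 passed it: Z00054470-1, with a difference of -2.56, and Z00007724-1, with a difference of -2.05. Both were well above background on neither array of the Ctbp2 cultures without Dox, and Z00054470-1 on no array of 5 of the other 6 lines, so that these differences rest on values at background and have no exact size.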

How the results depend on the processing

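Of the 17 alternatives, 10 kept the number of probes that changed within 1.5 times 1588. It was 394 with log ratios centred on the median of all probes of each array, 208 with the 4 Ctbp2 arrays alone (5573 at an unadjusted p under 0.05) and 3138 without the 4 Tbx3 arrays, and 797 to 1004 with 1 Ctbp2 array left out. Centring on the median of the tested probes, chosen after seeing the data, gave 1562. The probes that changed by at least 1.5-fold, 430 in all, were 150 with normexp and loess (90.7% of them rises, against 76.5%), 168 with the 4 Ctbp2 arrays alone and 317 to 444 with 1 array left out. The probes that differed from the other lines, 1243 in all, were 255 with centring on the median of all probes, 2584 without the Tbx3 arrays and 644 to 778 with 1 array left out. The cause of these shifts was not tested. With the replicate number as a block, 1469 probes passed, 948 up and 521 down, of which 804 and 395 had passed without it, 409 changed by at least 1.5-fold and 1132 differed from the other lines. The block ended the call of Z00074822-1 (limma adjusted p 0.06). Same-numbered Ctbp2 cultures did not deviate together (r = -0.024), which by itself cannot show whether the numbers pair the samples. By their labels, replicates 1 and 2 were wells 2 and 3 with Dox and wells 1 and 2 without. No named probe changed direction under any alternative. Z00072898-1 passed in all 16 that held it, Z00007724-1 in 15 of 16, Z00054470-1 in 10 of 15 and Z00074822-1 in 9 of 17. Signals near background limit the largest folds, and array position cannot be told apart from culture.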
